A study of Mus musculus with 10 samples.

Results

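The miRNAs of the imprinted Dlk1-Dio3 region were measured in mouse liver as 78 of the 655 probes of an Illumina bead array, chosen by miRNA number alone, with any arm, star or version suffix. They represent 51 hairpins. The file assigns 75 of the 78 probes to chromosome 12, and the other 3, whose names end in 9.1, have no chromosome there and were placed by their miRNA number. Livers came from 5 LivPGC-1α mice, which carry a human PGC-1α transgene in the pLiv.7 vector under Apolipoprotein E promoter sequences, and from 5 wild-type (WT) mice. All were FVB/N (FVBN in the labels), aged 4 months and, by the study's account, fasted overnight. The labels number 5 liver samples per genotype, taken here as 1 animal each. Should some share an animal, the p-values would reflect technical spread as well. One array was used per sample, and all 10 arrays lay on 1 chip, with WT on positions 1 to 5 and LivPGC-1α on positions 6 to 10, so that chip position and genotype cannot be told apart. The array holds miRNA probes only, so transgene expression was not analysed here.

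The Dlk1-Dio3 region is an imprinted domain on the distal part of mouse chromosome 12. Its protein-coding genes Dlk1, Rtl1 and Dio3 are expressed from the paternal chromosome, while the non-coding transcripts Meg3, Rian and Mirg and the miRNAs are expressed from the maternal one. The miRNAs are thought to be processed from long maternal transcripts, so that many mature forms come from shared precursors. A proximal set lies antisense to Rtl1, a retrotransposon-derived gene, and several of its miRNAs match the Rtl1 mRNA fully and can direct its cleavage. The distal miR-379 to miR-410 set holds most hairpins of the region, and mice that lack it are known for disturbed glucose balance around birth. Expression is high in the embryo, placenta and brain and low in most adult tissues, including liver. PGC-1α coactivates transcription factors that drive mitochondrial biogenesis, fatty acid burning and, in fasting, hepatic glucose production.

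All 51 hairpins were found among the RefSeq genes of assembly GRCm38.p6, which was used for names, order and neighbours only. In that order, miR-770 lies within Meg3, and 10 hairpins from miR-673 to miR-136 lie within the span of Rtl1. These 11 hairpins, with 20 probes, are called the miR-127 to miR-136 part. The hairpins of miR-341, miR-1188 and miR-370, with 4 probes, lie within Rian. The remaining 37 hairpins, with 54 probes, form the miR-379 to miR-410 part, and the last 9 of them, from miR-453 to miR-410, lie within Mirg. A mature RefSeq sequence was matched to 71 of the 78 probes. The sequences of selected members named in the text are given here 5′ to 3′ from RefSeq (GRCm38.p6), with the seed, bases 2 to 8, in capitals.
miR-379: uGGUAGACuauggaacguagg
miR-411: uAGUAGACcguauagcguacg
miR-154: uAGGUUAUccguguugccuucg
miR-541: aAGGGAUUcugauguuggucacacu
miR-299: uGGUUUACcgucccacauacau
miR-299*: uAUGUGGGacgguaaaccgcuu
miR-134: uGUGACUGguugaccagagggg
miR-376b: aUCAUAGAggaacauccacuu
miR-376a: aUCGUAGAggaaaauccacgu
miR-376b*: gUGGAUAUuccuucuaugguua
miR-376c*: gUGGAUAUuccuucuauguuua
miR-127: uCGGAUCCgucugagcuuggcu
miR-136*: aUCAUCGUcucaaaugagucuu
miR-668: uGUCACUCggcucggcccacuacc

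The members are a family by position and not by seed. Among the 71 sequences there were 70 distinct seeds, and the only shared seed was that of miR-376b* and miR-376c*. A further 7 pairs had seeds that differed at 1 base, among them miR-379 with miR-411, which are neighbours on the chromosome, and miR-376b with miR-376a. No other member shared its whole seed with a member named below for its unadjusted p. The sequences of miR-376c, miR-487b and miR-485 were not matched and are named only.

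Many members were not detected. A probe was taken as detected on an array when its detection p, which sets it against the negative controls of that array, was at most 0.01. Of the 78 probes, 31 (39.7%) were detected on all 10 arrays, 18 on between 1 and 9, and 29 (37.2%) on none, against 408 (62.3%) on all 10, 105 on some and 21.7% on none of the 655 probes of the array. At the level of hairpins, 26 of 51 had a probe detected on all 10 arrays and 14 had no detected probe. The miR-127 to miR-136 part had 8 probes on all 10 arrays, 2 on some and 10 on none, and the miR-379 to miR-410 part had 22, 15 and 17. The median GC content of the mature sequence was 47.6% for probes detected on all 10 arrays, 44.7% for those on 1 to 9 and 52.3% for those on none.

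The 29 probes detected on no array were miR-770-3p, miR-673-3p, miR-673-5p, miR-540-5p, miR-665, miR-431, miR-431*, miR-433, miR-433* and miR-127* in the miR-127 to miR-136 part, miR-1188 and miR-370 in Rian, and miR-411*, miR-380-3p, miR-380-5p, miR-1193, miR-666-3p, miR-543, miR-376c*, miR-654-5p, miR-300, miR-300*, miR-539, miR-544, miR-485, miR-496, miR-412, miR-412:9.1 and miR-369-5p in the miR-379 to miR-410 part. Both arms of miR-431 and miR-433, which belong to the Rtl1 antisense set, were therefore undetected, while miR-127, miR-434-3p, miR-434-5p and miR-136* of that set were detected on all 10 arrays. The names miR-341, miR-411* and miR-412 also occur with the suffix 9.1, whose meaning is not given, so that what those 3 probes measure is uncertain. For 2 of these names the probes differed in detection, since miR-341:9.1 and miR-411*:9.1 were detected on all 10 arrays, miR-341 on 1 and miR-411* on none.

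Detection leaned towards WT. Members detected numbered 34, 34, 36, 41 and 38 on the LivPGC-1α arrays, against 42, 42, 47, 39 and 37 on the WT arrays, and the groups overlapped. Of the 18 members detected on some arrays, 15 (83.3%) were detected on more WT arrays and 1, miR-376a*, on more LivPGC-1α arrays. Over all 105 probes of that kind, 72 (68.6%) were detected on more WT arrays and 20 on more LivPGC-1α arrays. The lowest normalized signal that counted as detected was between 1035 and 1164 on the LivPGC-1α arrays, against 947.5 for WT 2, 953.9 for WT 3, 1024 for WT 4, 1047 for WT 1 and 1218 for WT 5. The part of this limit in the count was not tested. The 8 members detected only in WT were miR-337-3p, miR-136, miR-341, miR-323-5p, miR-495, miR-381, miR-377 and miR-409-3p, of which 5 were detected on WT 3 alone and 2, miR-341 and miR-323-5p, on WT 5 alone. For none of them did the signal exceed the detection limit of the other group on average, so no fold is given.

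**Figure D1:**
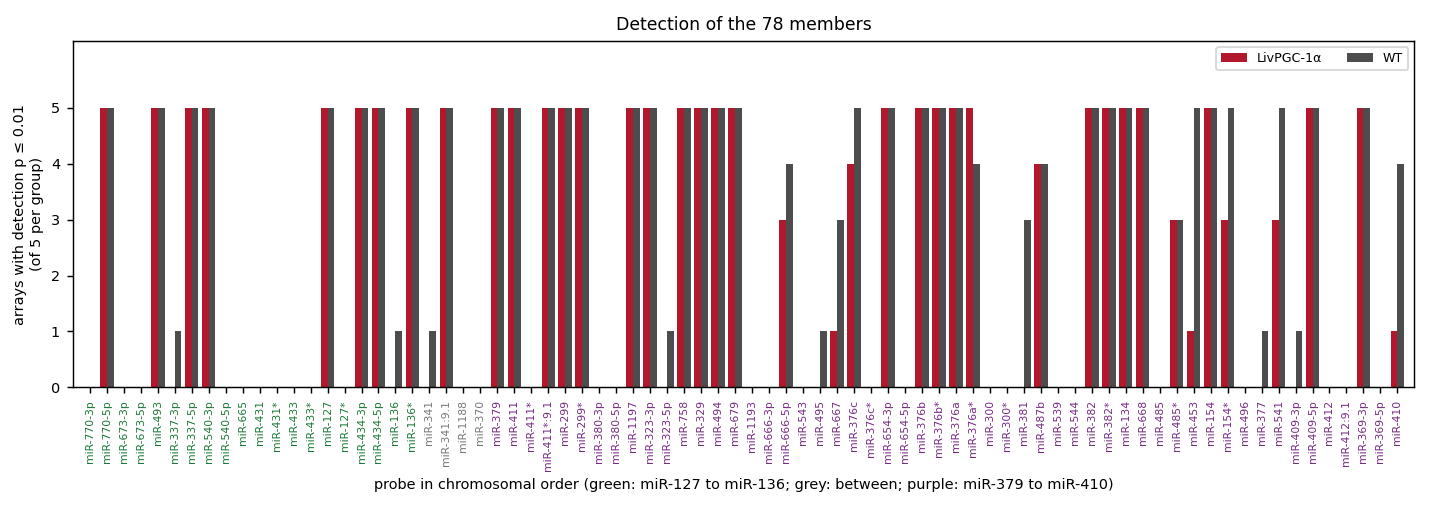
Number of arrays (of 5 per genotype) on which each of the 78 probes had a detection p of at most 0.01, in chromosomal order, with LivPGC-1α and WT bars side by side and name colours for the parts. Full-height pairs are the 31 probes detected on all 10 arrays, gaps the 29 detected on none, and unequal pairs mostly have the higher WT bar.

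The comparison of LivPGC-1α with WT asks which miRNAs differ when PGC-1α is overexpressed in the liver. The scanner intensities were quantile-normalized over all 655 probes, log2-transformed and compared by limma for the 513 probes detected on at least 1 array, 49 of them members. No member passed an adjusted p under 0.05 (2 of 513, 0.39% of probes), and the smallest adjusted p of a member was 0.0864, for miR-379. At an unadjusted p under 0.05 in limma, 9 members (18.4%) had a lower signal in LivPGC-1α, against 3.9% of all tested probes, and 2 (4.08%) had a higher one, against 10.5%. For 3 members the LivPGC-1α group lay wholly below the WT group, against 0.975% of all tested probes, or 5 in number, while no member lay wholly above, against 3.9%. Altogether 39 of the 49 tested members were below 0 on the log2 scale, with a median change of −0.08, against 0.01 over all tested probes, of which 43.1% were below 0. The median of the members stayed below 0 under the other scalings, between −0.17 and −0.04, and lay 0.09 to 0.12 below that of all tested probes.

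The share below 0 was smaller among members chosen without regard to where they were detected. Over all 78 probes with no detection filter, 53 were below 0, the median change was −0.03, and 12 were lower and 3 higher at an unadjusted p under 0.05, against 280 (42.7%) below 0, 24 (3.66%) lower and 64 (9.77%) higher of all 655 probes. Among the 31 members detected on all 10 arrays, 23 were below 0, with a median of −0.06, against 0.01 over the 408 probes so detected. In a limma fit of those 408 probes, 6 of the 31 were lower and 2 higher at an unadjusted p under 0.05. Over all 408, 15 were lower and 47 higher. Of the 18 detected on some arrays, 16 were below 0, with a median of −0.10, but a probe near the detection limit enters this group through the arrays on which it was high. The 29 undetected members were split evenly, 14 below and 15 above 0, with a median of 0.0025. In bulk liver, fewer cells that contain these miRNAs and less of them per cell cannot be told apart.

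**Figure D2:**
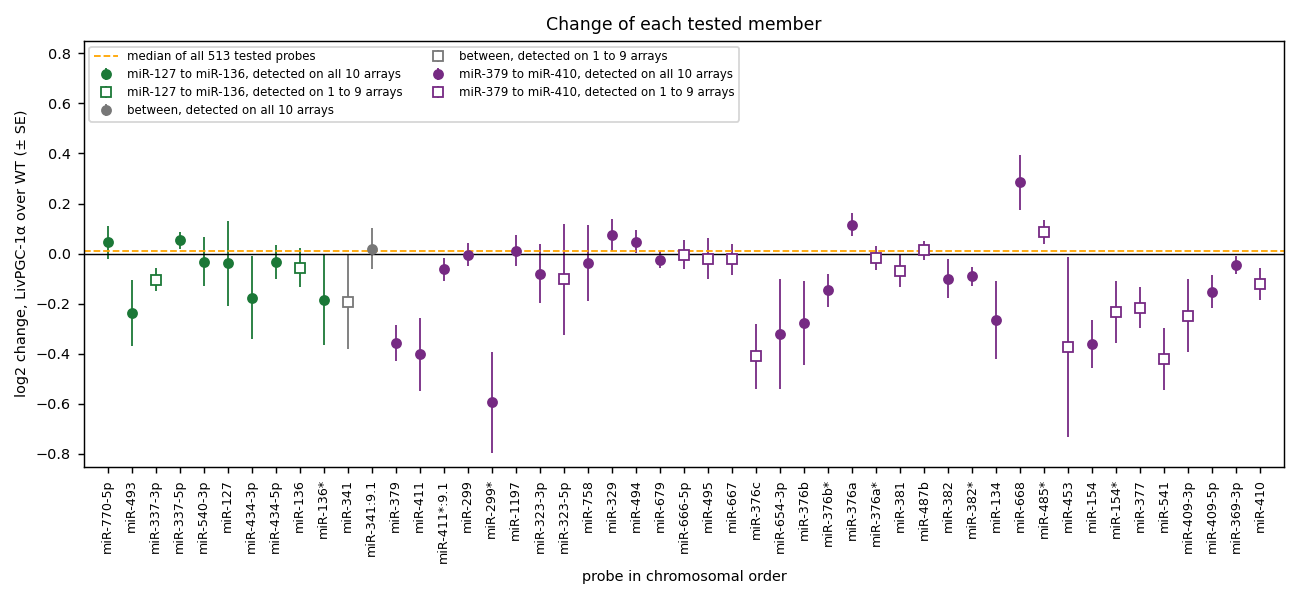
The log2 change of each of the 49 tested members (LivPGC-1α over WT, ± SE) in chromosomal order, with filled points for probes detected on all 10 arrays, open squares for the others and a dashed line at the median of all 513 tested probes. Most points lie below the line, the lowest being miR-299* at −0.59, and miR-668 stands highest at 0.28.

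At the start of the miR-379 to miR-410 part, miR-379 and miR-411 had lower mean signals in LivPGC-1α. miR-379, a glucocorticoid-responsive miRNA known in mouse liver for its role in triglyceride handling, had normalized signals of 7329, 7804, 7535, 7986 and 8971 on the LivPGC-1α arrays, against 10331, 9159, 11584, 9847 and 9847 on the WT arrays. The groups did not overlap, and the gap between them lay between LivPGC-1α 5 and WT 2. The change was −0.36 ± 0.07 (SE) on the log2 scale (limma, unadjusted p = 0.00067). With arrays scaled to the 75th percentile of the probes detected on all of them it was −0.46 and passed the threshold (limma, adjusted p = 0.0131, and between 0.0131 and 0.696 over all alternatives). The highest of these adjusted p-values came with a term for chip position, where the change was −0.50 ± 0.14 (SE). miR-411 had 1836, 1682, 1849, 1901 and 1750 in LivPGC-1α, against 2625, 1711, 3231, 2121 and 2486 in WT. The LivPGC-1α animals lay close together, whereas the WT animals were spread over a wide range, and WT 2 fell among the LivPGC-1α values. Its change was −0.40 ± 0.15 (SE; limma, unadjusted p = 0.0211, adjusted p = 0.251).

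miR-154 and miR-541, both within Mirg, were the other members without overlap between the groups. miR-154 had 3521, 3110, 3521, 3435 and 3585 in LivPGC-1α, against 4122, 3766, 5446, 4072 and 4810 in WT, a change of −0.36 ± 0.10 (SE; limma, adjusted p = 0.122). Its SD on the log2 scale was 0.08 in LivPGC-1α and 0.21 in WT. miR-541 had 1054, 975, 1146, 1082 and 1169 in LivPGC-1α, against 1441, 1218, 1989, 1277 and 1438 in WT, a change of −0.42 ± 0.12 (SE; limma, adjusted p = 0.145). It was detected on 3 LivPGC-1α arrays and on all 5 WT arrays. In both, WT 3 was the highest animal and LivPGC-1α 2 the lowest. Without WT 1, WT 3 and WT 5 the change was −0.20 for both, against −0.26 for miR-379 and −0.08 for miR-411 under the same setting. Those were the arrays on which the members deviated upwards most (median over members), so their removal by itself tends to raise the changes. Only WT 2 and WT 4 remained in that group.

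Other members of Mirg with an unadjusted p under 0.05 were miR-377 and miR-409-5p. miR-409-5p had 1344, 1277, 1350, 1317 and 1367 in LivPGC-1α, against 1424, 1333, 1651, 1367 and 1651 in WT, a change of −0.15 ± 0.07 (SE). WT 2 lay among the LivPGC-1α animals, so that the groups overlapped. miR-377 was detected on WT 3 alone, so its change of −0.22 compares values that were not detected on the other 9 arrays.

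The miR-376 hairpins, which lie close together in the middle of the part, had changes of either sign. miR-376c had 1205, 962, 1326, 1304 and 1277 in LivPGC-1α, against 1727, 1300, 2040, 1434 and 1614 in WT, a change of −0.41 ± 0.13 (SE; limma, adjusted p = 0.169). miR-376b, with a seed 1 base different from that of miR-376a, had 7419, 6385, 9693, 7656 and 7737 in LivPGC-1α, against 9525, 6633, 12518, 8561 and 10478 in WT, a change of −0.28 ± 0.17 (SE; limma, unadjusted p = 0.131) that was −0.17 without WT 3. The groups overlapped in both miRNAs. In contrast, miR-376a had 1732, 1614, 1631, 1614 and 1508 in LivPGC-1α, against 1381, 1512, 1559, 1520 and 1500 in WT, a change of 0.12 ± 0.04 (SE; limma, unadjusted p = 0.0273, adjusted p = 0.284). Its sign turned to −0.0048 when arrays were scaled to the 75th percentile of the probes detected on all of them. Cross-hybridisation between the near-identical miR-376 sequences was not tested.

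miR-668 was the other member with a higher signal in LivPGC-1α at an unadjusted p under 0.05. It had 2061, 1974, 2781, 2236 and 2321 in LivPGC-1α, against 2104, 1770, 1626, 1692 and 2140 in WT, a change of 0.28 ± 0.11 (SE; limma, unadjusted p = 0.0292, adjusted p = 0.294). The groups overlapped, and LivPGC-1α 3 was the highest animal. Close to it on the chromosome, miR-382* had a small change of −0.09 ± 0.04 (SE; limma, unadjusted p = 0.0351), with 1338, 1344, 1250, 1280 and 1381 in LivPGC-1α, against 1457, 1375, 1381, 1457 and 1353 in WT. miR-134, known for its role in dendritic spines of neurons, had 1940, 1711, 2083, 2188 and 2014 in LivPGC-1α, against 2432, 2061, 3613, 2089 and 2014 in WT. Its change of −0.26 ± 0.16 (SE; limma, unadjusted p = 0.124) was −0.12 without WT 3.

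**Figure D3:**
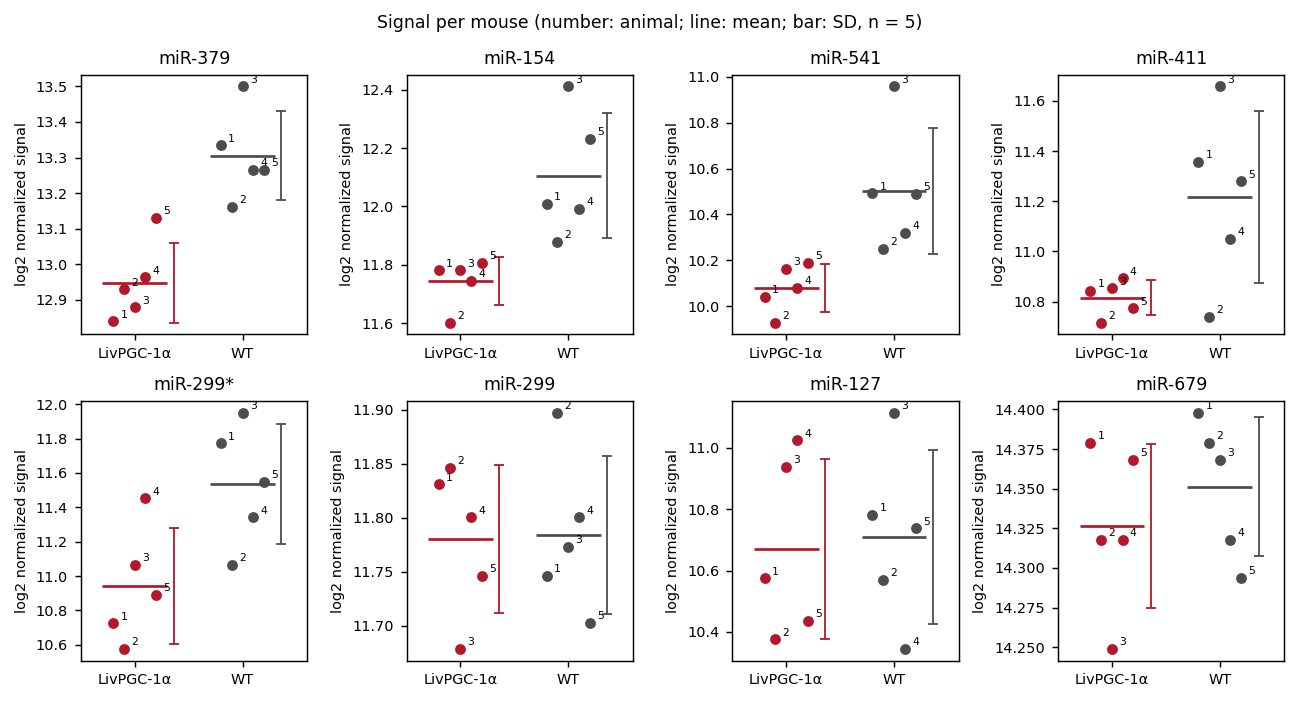
Normalized signal (log2) of 8 members in each mouse, LivPGC-1α left and WT right in every panel, each panel with its own axis, with animal numbers beside the points, the mean as a line and the SD (n = 5) as a bar. miR-379, miR-154 and miR-541 show no overlap between genotypes, WT 3 is highest in 6 of the 8 panels, and miR-299 and miR-679 vary over a narrow range.

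Arms of the same hairpin allowed a comparison within a precursor. Both arms were on the array for 24 hairpins. For 4 of them, miR-299, miR-376b, miR-382 and miR-434, both arms were detected on all 10 arrays, for 6 hairpins 1 arm was detected on all 10 arrays and the other on none, and for 5 neither was detected. Of 10 hairpins with both arms tested, 8 had both changes below 0 and 2, miR-337 and miR-376a, had changes of opposite sign. Of all tested members, 79.6% were below 0. For miR-136, miR-323, miR-337 and miR-409, 1 arm was detected on 1 WT array only and was tested because of that array. Of the 10 hairpins with both arms tested, miR-299 had the widest contrast. miR-299* had 1692, 1526, 2140, 2802 and 1901 in LivPGC-1α, against 3500, 2140, 3960, 2597 and 2994 in WT, a change of −0.59 ± 0.20 (SE; limma, unadjusted p = 0.0153, adjusted p = 0.212). The opposite arm, miR-299, had 3642, 3681, 3277, 3567 and 3435 in LivPGC-1α, against 3435, 3814, 3500, 3567 and 3333 in WT, a change of −0.0036 ± 0.05 (SE). Thus the arm with the lowest change of all members and an arm with a change near 0 belonged to the same precursor, and no test of the difference between arms was made.

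In the miR-127 to miR-136 part, 8 of 10 tested members were below 0, with a median change of −0.05, and none had an unadjusted p under 0.05. In the miR-379 to miR-410 part, 30 of 37 were below 0, with a median of −0.09, and all 9 lower and both higher members at that level lay here. With no detection filter the medians were −0.03 over 20 probes and −0.04 over 54. The difference between the parts was not tested, and the medians differed by 0.04. Between animals of 1 genotype, the SD of the median deviation was 0.07 for the miR-127 to miR-136 part and 0.03 for the miR-379 to miR-410 part. Those SDs describe single animals and do not measure the spread of the difference between the parts. Restricting the proximal set to the hairpins of miR-431, miR-433, miR-127, miR-434 and miR-136, the 5 tested probes were all below 0, with a median of −0.06. The median of the miR-127 to miR-136 part turned to 0.09 without WT 1, WT 3 and WT 5 and to 0.02 without WT 3 and LivPGC-1α 2, while that of the miR-379 to miR-410 part stayed below 0, at −0.06 and −0.07. The left-out WT arrays had the highest median deviations of the members (0.045, 0.043 and 0.047), and LivPGC-1α 2 the lowest (−0.097). Their removal therefore tends to raise the medians by choice, and without the WT arrays named only WT 2 and WT 4 remained. The order of the parts was not stable, as the medians of the miR-127 to miR-136 and miR-379 to miR-410 parts were −0.11 and −0.06 with a term for chip position, −0.088 and −0.078 without WT 5, and −0.097 and −0.094 without LivPGC-1α 4. Chip position runs along with genotype, so the fit with that term is imprecise (SE of miR-379 0.14, against 0.07 without it).

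Single members of the proximal part varied widely between animals of a genotype. miR-127, which is known to target Rtl1, had 1526, 1329, 1961, 2083 and 1386 in LivPGC-1α, against 1760, 1520, 2216, 1300 and 1706 in WT, a change of −0.04 ± 0.17 (SE). The same animals of each genotype were high for miR-136*, which had 1533, 1270, 1744, 2061 and 1574 in LivPGC-1α, against 2040, 1367, 2597, 1604 and 1814 in WT, a change of −0.19 ± 0.18 (SE). miR-434-3p had 1750, 1579, 2216, 1940 and 1792 in LivPGC-1α, against 2236, 1849, 3025, 1574 and 1989 in WT. WT 3 was the highest animal in all 3 miRNAs, and without it the changes were 0.065 for miR-127, −0.065 for miR-136* and −0.043 for miR-434-3p. When WT 1, WT 3 and WT 5 were left out, which was decided after the values were seen, the changes of these 3 members were 0.21 for miR-127, 0.12 for miR-136* and 0.11 for miR-434-3p.

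The members with the strongest signal in each part, which on an array gives no order of abundance between miRNAs, overlapped between the genotypes. In the proximal part, miR-337-5p averaged 16958 ± 693 in LivPGC-1α and 16334 ± 396 in WT (SD, n = 5 each), and miR-770-5p 15965 ± 699.9 in LivPGC-1α and 15524 ± 1511 in WT (SD, n = 5 each). miR-493 averaged 7454 ± 1027 in LivPGC-1α and 8829 ± 1461 in WT (SD, n = 5 each), a change of −0.24 ± 0.13 (SE; limma, unadjusted p = 0.102). In the distal part, miR-679 averaged 20553 ± 730.0 in LivPGC-1α and 20909 ± 632 in WT, miR-411*:9.1 averaged 12057 ± 451 in LivPGC-1α and 12607 ± 778 in WT, and miR-494 averaged 11248 ± 440 in LivPGC-1α and 10894 ± 635 in WT (SD, n = 5 each). In Rian, miR-341:9.1 averaged 18894 ± 1429 in LivPGC-1α and 18676 ± 1984 in WT (SD, n = 5 each). None of these 7 had an unadjusted p under 0.05, and the signs of miR-770-5p, miR-341:9.1, miR-679 and miR-494 turned with the processing.

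Particular animals held the extreme values of many members. Of the 49 tested members, 21 (42.9%) had their highest signal on WT 3, against 69 (13.5%) of all 513 tested probes, and 13 (26.5%) had their lowest on LivPGC-1α 2, against 16 (3.12%). Of all tested probes, 13 had both, and all 13 were members, namely miR-337-3p, miR-136*, miR-411, miR-299*, miR-376c, miR-376b, miR-134, miR-154, miR-154*, miR-541, miR-409-3p, miR-409-5p and miR-410. Both arrays were picked because the members had their extremes there most often, so these counts describe the members and are no test. Among the 31 members detected on all 10 arrays, where a high array cannot bring a probe into the count, 11 (35.5%) were highest on WT 3, against 44 (10.8%) of the 408 probes so detected, and 7 (22.6%) were lowest on LivPGC-1α 2, against 10 (2.45%). LivPGC-1α 3 was lowest for 8 (25.8%) of these 31 members, against 63 (15.4%) of the 408 probes. WT 3 was the highest array for 5 of 10 tested members of the miR-127 to miR-136 part. In the miR-379 to miR-410 part it was the highest for 16 of 37. These counts include members detected on WT 3 alone, among them miR-337-3p and miR-136 in the miR-127 to miR-136 part. LivPGC-1α 2 was the lowest array for 11 of the 37, but for only 2 of the 10. In the miR-127 to miR-136 part, LivPGC-1α 3, WT 1, WT 2 and WT 4 were also the lowest for 2 each. Scaling moved the counts over all tested members. Without normalization, 8 members were highest on WT 3 and lowest on LivPGC-1α 2, and these were all the probes with that pattern. With the 75th percentile of probes detected on all arrays, 14 of 16 such probes were members.

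**Figure D4:**
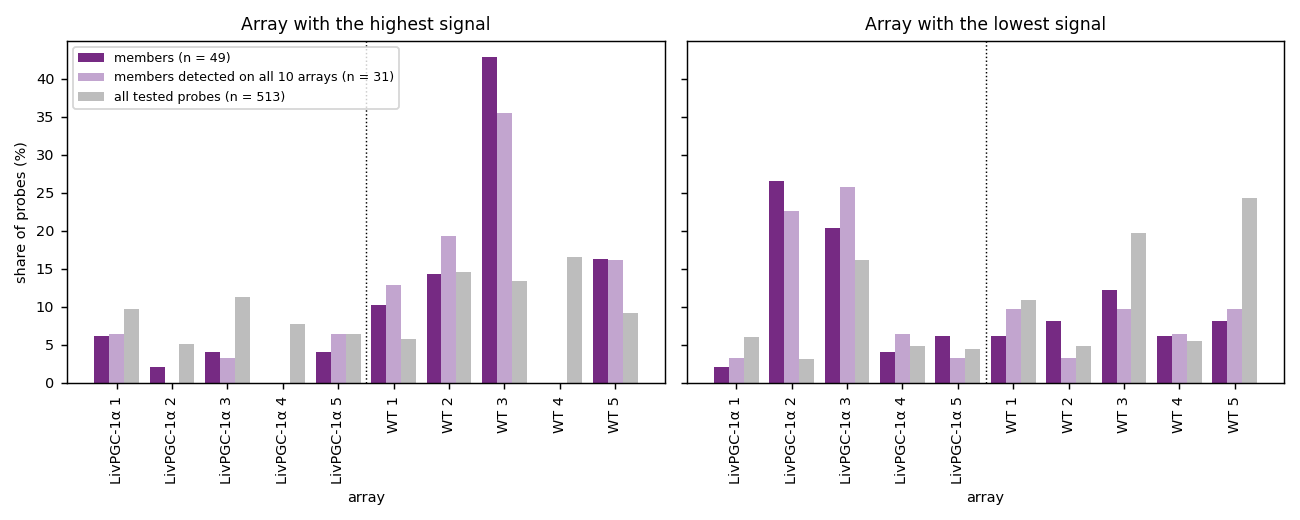
Share of probes (%) with their highest signal (left panel) or lowest signal (right panel) on each array, LivPGC-1α arrays left of the WT arrays, for the 49 tested members, the 31 members detected on all 10 arrays and all 513 tested probes. Members exceed all probes most on WT 3 for the highest signal (42.9% and 13.5%) and on LivPGC-1α 2 for the lowest (26.5% and 3.12%).

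Extremes were also counted within a genotype. Among the 5 LivPGC-1α arrays, LivPGC-1α 2 was the lowest for 20 members (40.8%), against 11.9% of all tested probes, and among the 5 WT arrays WT 3 was the highest for 23 members (46.9%), against 18.5%. These 23 include members detected on WT 3 alone. Among the 31 members detected on all 10 arrays, WT 3 was the highest WT array for 13 (41.9%), against 17.2% of the 408 probes so detected. LivPGC-1α 2 was the lowest LivPGC-1α array for 11 of the 31 (35.5%), against 11.5% of the 408. LivPGC-1α 3 was the lowest for more of them, 14 (45.2%), against 34.8%. The median SD of a tested member was 0.09 on the log2 scale in LivPGC-1α and 0.16 in WT, against 0.08 and 0.11 over all tested probes in LivPGC-1α and in WT. WT 3 also carried a high summed signal of miRNAs of an X-linked cluster known for testis expression, of which 14 of 16 probes were detected on some array and 4 on all 10. Their summed signal was between 20798 and 22817 on the LivPGC-1α arrays, while WT 3 had 56390 and the remaining WT arrays 19760 to 23750. Not every probe followed, as miR-463 had 3814 on WT 3, against 3851 to 4424 in LivPGC-1α and 3260 to 4215 on the other WT arrays. WT 1 carried a striated muscle signal, the sum of 7 marker probes being 7095 to 7509 on the LivPGC-1α arrays, against 99224 on WT 1 and 6650 to 8219 on the other WT arrays, with miR-208a undetected. The part of these signals in the members' values was not tested. The 5 hepatocyte markers, miR-122 among them, were detected on all 10 arrays, and of the 6 brain markers 3 were detected on all 10 arrays, miR-153 on 1 and miR-9 and miR-124 on none. Stellate cell, fibroblast and smooth muscle markers had a mean log2 deviation of 0.28 on WT 1, −0.19 on WT 3 and −0.17 to 0.12 elsewhere. Leukocyte markers had −0.27 on WT 5 and −0.11 to 0.15 elsewhere, and embryonic stem cell markers −0.08 to 0.08 on all arrays. With WT 3 and LivPGC-1α 2 left out, a setting chosen after the values were seen, the median change of the 44 tested members was −0.04, with 5 lower and 2 higher at an unadjusted p under 0.05, against 23 lower and 44 higher of all 498 probes tested there. Leaving out a WT array high for the members and a LivPGC-1α array low for them tends to raise the median by choice.

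**Figure D5:**
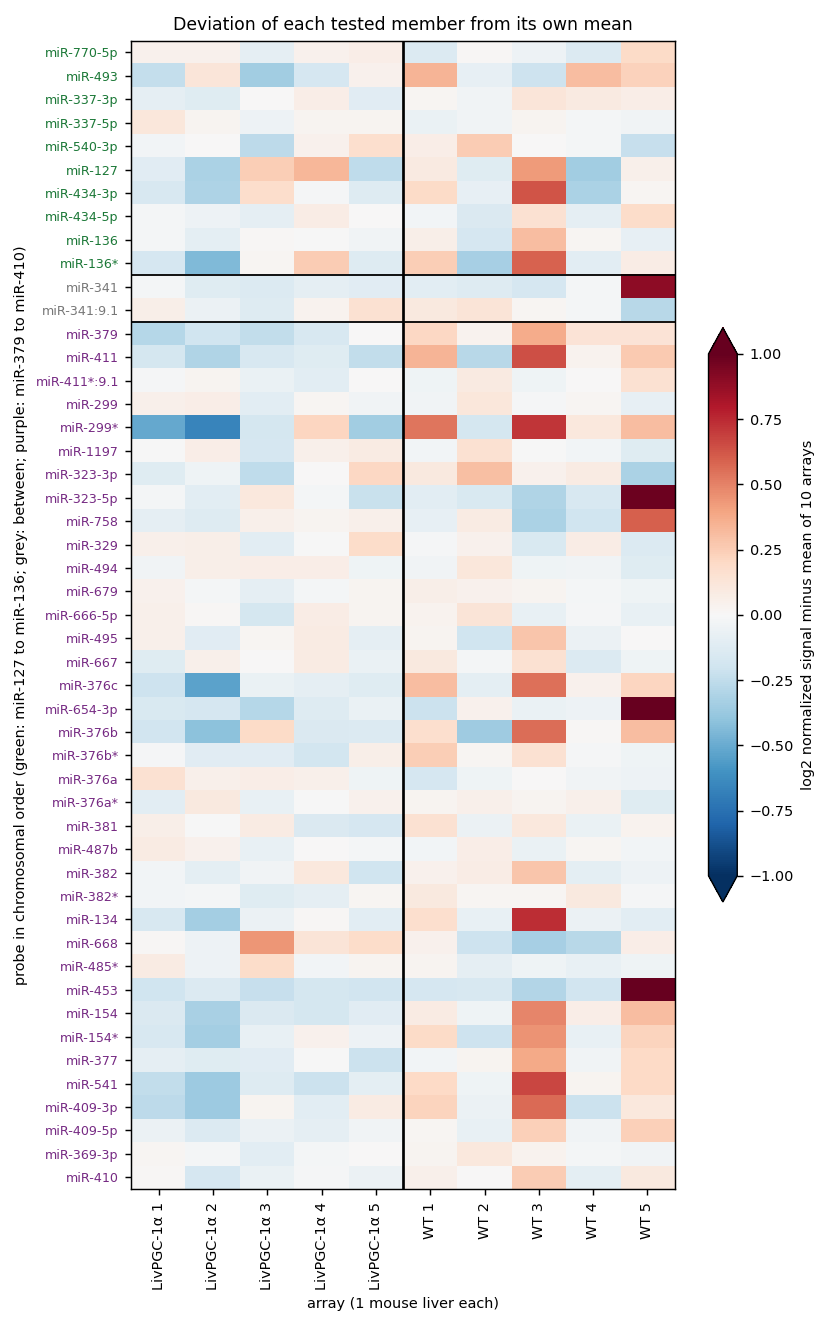
Deviation of the log2 normalized signal from the mean of the 10 arrays for each of the 49 tested members, in chromosomal order from top to bottom, LivPGC-1α arrays left and WT arrays right of the black line, the colour scale ending at −1 and 1. Red cells gather on WT 3 in both parts, blue cells on LivPGC-1α 2, and WT 5 is deep red for miR-341, miR-323-5p, miR-654-3p and miR-453.

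WT 5 stood apart for another group of members. miR-341, miR-323-5p, miR-654-3p and miR-453 were more than 1 log2 unit from the median of the 10 arrays there. miR-453 had 1020 to 1089 on the LivPGC-1α arrays, against 4018 on WT 5 and 976 to 1072 on the other WT arrays, and miR-654-3p had 3585 to 4169 on the LivPGC-1α arrays, against 9277 on WT 5 and 3766 to 4493 on the other WT arrays. miR-341 had 655 to 711 on the LivPGC-1α arrays, against 1344 on WT 5, while miR-341:9.1 was at its lowest of all arrays there, 15420. The opposite arm of miR-323-5p, miR-323-3p, was also at its lowest on WT 5. These 4 members contributed changes from −0.10 to −0.37 to the counts below 0, with SEs between 0.19 and 0.36. Without WT 5 the change was −0.088 for miR-654-3p and 0.016 for miR-453.

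Other miRNAs of chromosome 12 and of the imprinted Sfmbt2 cluster were mostly above 0. The file assigns 10 further probes to chromosome 12, of which 8 were tested and 7 were above 0, with a median of 0.17, and 4 had a higher signal at an unadjusted p under 0.05, among them miR-345-5p, at 8561, 9077, 9159, 6801 and 6385 in LivPGC-1α, against 5575, 6449, 5284, 5682 and 5793 in WT (0.46 ± 0.11, SE; limma, adjusted p = 0.105). The others were miR-345-3p, from the same hairpin, miR-681 and miR-153. The last was detected on 1 array only, with its highest value on LivPGC-1α 3 (1177), and was tested because of that array. Of the miRNAs of other imprinted loci (H19, Gnas, Mest, Igf2 and Sfmbt2), 37 were tested and 27 were above 0, with a median of 0.03, and 10 had a higher and 0 a lower signal at that level in limma (0 of either at an adjusted p under 0.05). Most of them, 32, came from the Sfmbt2 cluster, with 24 above 0 and 8 higher at the unadjusted level. The H19, Gnas, Mest and Igf2 probes numbered only 5, with 3 above and 2 below 0, 2 higher, and changes from −0.42 to 0.22. Of all 513 tested probes, 292 were above 0, 54 (10.5%) were higher and 20 (3.9%) lower. The differences from the Dlk1-Dio3 members were not tested.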

How the data were processed

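Total liver RNA was hybridised by the authors to Illumina Universal BeadChips for miRNA and read on an iScan. The authors deposited a signal intensity per probe from GenomeStudio, without background subtraction or scaling, a detection p-value per probe and array, and a table of their quantile-normalized intensity, used here as an alternative. The sources used here do not state the genome build of the files, and no coordinates are printed. Deposited intensities were quantile-normalized over 655 probes (values below 1 raised to 1), log2-transformed and fitted with limma 3.58.1 (R 4.3.3; lmFit and eBayes, no covariate, two-sided) for 513 probes with a detection p of at most 0.01 on at least 1 array. Benjamini-Hochberg adjustment ran over all of these. No array test is named in the methods. The fit was tested on simulated data. Depth has no equivalent here, and the number of arrays limits the precision.

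Members and lists were chosen with earlier results of these data known, so no list was tested. Named are members with an unadjusted p under 0.05 or without overlap between groups, the 3 strongest per part detected on all 10 arrays, undetected members, members sharing a seed with the first, and members with 1 animal over 1 log2 unit from the median. miR-127, miR-136*, miR-434-3p, miR-134, miR-376b, miR-299, miR-345-5p and others named outside this rule were chosen after their values were seen. The arm of a name without one was taken from naming conventions. Alternatives covered scaling, background, filters, the variance model, array weights, chip position, a replicate block and left-out animals. Tables were made with pandas and figures with matplotlib.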

Additional observations from a re-analysis of the deposited data

Results flagged for a closer look

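In 98 groups of 5 animals (49 tested members in each genotype), 8 had an animal whose gap to its nearest neighbour was a larger share of the group's range than Dixon's 95% limit for 5 samples (0.71) allows, and chance alone flags about 1 in 20 groups. WT 5 was the animal apart in 5 of these and LivPGC-1α 3 in the other 3. WT 5 was high at 1344 for miR-341, 1584 for miR-323-5p, 9277 for miR-654-3p and 4018 for miR-453, and low at 1177 for miR-376a*. LivPGC-1α 3 was low at 14725 for miR-770-5p, 977.9 for miR-666-5p and 2542 for miR-369-3p. The cause was not tested.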

How the results depend on the processing

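Over 27 named members and their alternatives, 632 of 659 changes kept their sign and their side of the threshold. The median change of the tested members (−0.08) was −0.17 with the 75th percentile of probes detected on all arrays, −0.040 with that of all probes, −0.13 without normalization, −0.20 with normexp from detection p-values, −0.032 with no detection filter and −0.037 without WT 1, WT 3 and WT 5, and between −0.10 and −0.057 with 1 animal left out. That of the miR-127 to miR-136 part (−0.05) was −0.15 with the 75th percentile of probes detected on all arrays, −0.12 with normexp and 0.087 without the 3 WT arrays, and between −0.097 and −0.018 with 1 animal left out. That of the miR-379 to miR-410 part (−0.09) was −0.21 with the 75th percentile of probes detected on all arrays, −0.13 with cyclic loess, −0.17 without normalization, −0.20 with normexp and −0.041 with no detection filter, and between −0.10 and −0.073 with 1 animal left out. Members at an unadjusted p under 0.05 (9 lower and 2 higher) numbered 21, all lower, with the 75th percentile of probes detected on all arrays (86 lower and 11 higher of all 513 probes), 6 lower and 6 higher with that of all probes (12 lower and 156 higher of 513), 10 lower and 0 higher with cyclic loess, 9 lower and 0 higher without normalization, 3 with a chip position term, 5 without the 3 WT arrays and 7 without WT 3 and LivPGC-1α 2, and between 8 and 13 with 1 animal left out.

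No member was called in limma except with the 75th percentile of probes detected on all arrays, where 1 was (miR-379), and with that of all probes, where 3 were (miR-379 at −0.32, miR-154 at −0.34 and miR-337-5p at 0.14) among 80 probes called. Over all tested probes (2 called), 1 was called under cyclic loess, under a variance trend with robust prior and without any normalization, and 0 with a term for chip position, without the 3 WT arrays and without WT 3 and LivPGC-1α 2, and between 0 and 4 with 1 animal left out. Members with their highest signal on WT 3 and lowest on LivPGC-1α 2 (13) numbered 8 without normalization. The cause of these differences was not tested.

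Signs turned in 10 of the 27 named members. With the 75th percentile of probes detected on all arrays miR-376a was −0.0048, miR-770-5p −0.0057 and miR-494 −0.017. With that of all probes miR-679 was 0.11, and without normalization 0.021. With the chip position term miR-770-5p was −0.093 and miR-679 0.048. miR-341:9.1 was −0.022 with array weights, between −0.047 and 0.054 with 1 animal left out (below 0 without WT 5 and without LivPGC-1α 5) and −0.043 without the 3 WT arrays, where miR-494 was −0.0086, miR-127 0.21, miR-136* 0.12, miR-434-3p 0.11 and miR-376b 0.049. Without WT 3 and LivPGC-1α 2, miR-127 was 0.14, miR-136* 0.021 and miR-434-3p 0.014. With 1 animal left out, miR-127 ranged from −0.13 to 0.065, above 0 without WT 3, LivPGC-1α 2 or LivPGC-1α 5, and miR-453 from −0.50 to 0.016, above 0 without WT 5.

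Animals that share a replicate number did not consistently deviate together (correlations −0.152, 0.326, −0.133, −0.121 and −0.367 for numbers 1 to 5). These correlations cannot show whether the numbers pair the animals. With a replicate block 0 probes were called. At an unadjusted p under 0.05, 9 members were then lower and 0 higher, against 18 lower and 41 higher of all 513 tested probes. At a detection p of at most 0.05, 55 members were detected, against 49. The settings without 3 WT arrays, without WT 3 and LivPGC-1α 2, without the version-suffix probes and the rescaled array counts were chosen after the data were seen. The arrays left out were those with extreme member values, so the direction in which the medians moved was favoured by that choice. Signals near the detection limit, between 947.5 and 1218 per array, limit what can be read from members detected on few arrays.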
